A study of Homo sapiens with 15 samples.

Results

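The baseline ribosome footprints of human HEK293 cells were described from both control lines of a ribosome profiling series on the RNA-binding proteins ZC3H7A and ZC3H7B. They were taken by their labels and make up 6 of the series' 15 libraries, 3 labelled Parental and 3 labelled Flag/HA control. HEK293 is an established embryonic kidney cell line. The Parental cells had the genotype label Wild-type-shCTR, so they carried a control hairpin RNA, and were kept in puromycin at 5 µg/mL until 2 passages before collection. Their frozen pellets were lysed in a buffer with 150 mM NaCl, 1% Triton X-100 and cycloheximide at 100 µg/mL, and a commercial laboratory, EIRNA Bio, made the libraries. The Flag/HA control cells had the genotype label Flag/HA overexpression and the treatment label doxycycline, which was given to the tagged lines at 1 µg/mL for 24 h. They were lysed in a hypotonic buffer with 0.5% Triton X-100 and 0.5% sodium deoxycholate, for which no cycloheximide is named, and 500 µg of lysate was digested with RNase I before a small RNA library kit was used. The growth notes name HEK293 and Flp-In T-REx 293 cells, the second kept in zeocin and blasticidin, without saying which group came from which. Neither group is therefore untreated, and cell line, hairpin or tag, antibiotics, doxycycline, lysis, kit and laboratory cannot be told apart in any comparison below. The control libraries are called independent replicates in the labels and nothing is said of the Parental ones, so p-values measure the spread between these libraries, which may be technical.

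A ribosome covers a short stretch of mRNA and shields it from nuclease, and the shielded pieces, or footprints, are sequenced and counted per gene. The count reflects how much of an mRNA a cell holds and how many ribosomes sit on each copy, and footprints alone do not separate these. Cycloheximide holds ribosomes in place during elongation. In growing cells the ribosomes are mostly spent on housekeeping proteins, such as the glycolytic enzymes, the chaperones that fold new proteins, the histones that package new DNA and the translation machinery itself. The mRNAs of most ribosomal proteins and of some translation factors share a start sequence, the terminal oligopyrimidine or TOP motif. It is a C at the first base followed by a run of C and T, through which growth signals control their translation.

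The 5′ starts of 8 nuclear mRNAs on which the results below turn are shown for this motif, 5 that hold it at the annotated start and 3 of the genes with most footprints that do not. In LDHB a run of C and T lies just before the annotated start, so its class depends on which base is taken as the start. Each line gives 15 bases before and 15 from the annotated start in RefSeq, build GRCh38.p14, 5′ to 3′ on the strand of the gene, with the run of pyrimidines that opens the transcript in capitals where it holds the motif. The places are chr19:3985449-3985478 (minus strand) for EEF2, chr6:73521018-73521047 (minus) for EEF1A1, chr13:45341169-45341198 (minus) for TPT1, chr5:181243892-181243921 (minus) for GNB2L1, listed in RefSeq as RACK1, and chr1:23691791-23691820 (plus) for RPL11. Those without the motif lie at chr1:8878672-8878701 (minus) for ENO1, chr12:21657828-21657857 (minus) for LDHB and chr7:26200732-26200761 (minus) for HNRNPA2B1.
EEF2: gttgacgtcagcgttCTCTTCCgccgtcgt
EEF1A1: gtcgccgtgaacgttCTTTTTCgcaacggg
TPT1: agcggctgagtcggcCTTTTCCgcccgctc
GNB2L1: ggggggcttttctctCTCTCTTTCactgca
RPL11: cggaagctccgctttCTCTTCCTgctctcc
ENO1: gcgggcggcgcggacagtatctgtgggtac
LDHB: gccccctcctccctccttgcagagccggcg
HNRNPA2B1: agcggctctagcggcagtagcagcagcgcc

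The Parental libraries held 39064072, 36614444 and 32955833 assigned reads and the control libraries 28625540, 29515572 and 28261810. Values are given as a percentage of a library's assigned reads or as normalised counts, the deposited reads per gene divided by a factor for each library. In every set of 6 values the 3 before the word against are Parental replicates 1 to 3 and the 3 after it are control replicates 1 to 3. Log2 differences are Parental minus control on log2(normalised count + 1), and a gene is called where limma's Benjamini-Hochberg adjusted p is under 0.05. Parental replicate 3 stood apart. Its chi-square of reads per gene, over the degrees of freedom, was 74.8 against replicate 1 and 55.3 against replicate 2, where 7.63 separated replicates 1 and 2 and 1.62 to 2.97 the control libraries (1 is counting noise alone), and 308 genes were at least 2-fold higher and 316 at least 2-fold lower in it than in the mean of the others, while 310 were at least 2-fold apart between those. Without it 13286 of the calls (98.7%) kept their direction, and values without it are given below for genes of the next paragraphs that it moves.

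Both lines spread their footprints over about the same number of genes. The genes that together took 50% of the reads numbered 1057, 1042 and 929 in the Parental libraries and 1000, 1022 and 1013 in the control libraries, or 1009 ± 70.0 and 1012 ± 11.1 (SD, n = 3 each). The leading rows, coding or not, held more of the reads in the Parental libraries. Their 10 leading rows held 4.28% ± 0.076 of the reads, against 3.42% ± 0.026 in the control (SD, n = 3 each), and the leading 100 rows held 16.8% ± 0.56 against 14.7% ± 0.077. Much of the first gap is 1 row that codes for no protein, the mitochondrial ribosomal RNA MT-RNR2. It held 0.913%, 0.973% and 0.577% against 0.0092%, 0.0085% and 0.0089% of reads. Coding genes alone were not compared in this way. The order of genes was shared in part, with 59 of the leading 100 rows and 719 of the leading 1000 in both lines. Across genes, which are not independent replicates, Pearson's r of the log2 values was 0.869 to 0.880 between libraries of the different lines, 0.989 to 0.995 within the Parental and 0.991 to 0.992 within the control libraries. More rows of the table had at least 1 read in the Parental libraries, 29532 to 30801 against 22923 to 23345 at a common depth of 28261810 reads.

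ENO1, the enolase of glycolysis, took the most assigned reads of any protein-coding gene on average, with 0.433%, 0.467% and 0.606% against 0.360%, 0.342% and 0.338% of reads. Parental replicate 3 was the highest, and the 6 libraries of ENO1 did not overlap between the lines, yet its difference was not called (log2 difference 0.38, SE 0.18, limma adjusted p = 0.0808). It was called without Parental replicate 3 (log2 difference 0.21, limma adjusted p = 0.0118). HNRNPA2B1, an RNA-binding protein of splicing and RNA transport, was next, with 0.348%, 0.350% and 0.393% against 0.472%, 0.468% and 0.476%. All control libraries were above all Parental ones (log2 difference -0.52, SE 0.14, limma adjusted p = 0.00772). LDHB, the lactate dehydrogenase subunit that prevails in heart, took 0.318%, 0.337% and 0.369% against 0.285%, 0.281% and 0.284%. PRKDC, the catalytic subunit of the DNA-dependent protein kinase of end joining, took 0.344%, 0.324% and 0.289% against 0.275%, 0.270% and 0.273%. LDHB and PRKDC sat close in both lines, though PRKDC passed the test without Parental replicate 3 (log2 difference 0.12, limma adjusted p = 0.0498). EEF2, the factor that moves the ribosome along codon by codon, took 0.366%, 0.374% and 0.483% against 0.210%, 0.205% and 0.204% and was higher in the Parental libraries (log2 difference 0.82, SE 0.16, limma adjusted p = 0.00128). Among mitochondrial rows, MT-ND5, a complex I subunit made on mitochondrial ribosomes, took 0.270%, 0.298% and 0.182% against 0.241%, 0.296% and 0.295%, and its libraries overlapped between the lines (log2 difference -0.32, and -0.13 without Parental replicate 3).

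**Figure D1:**
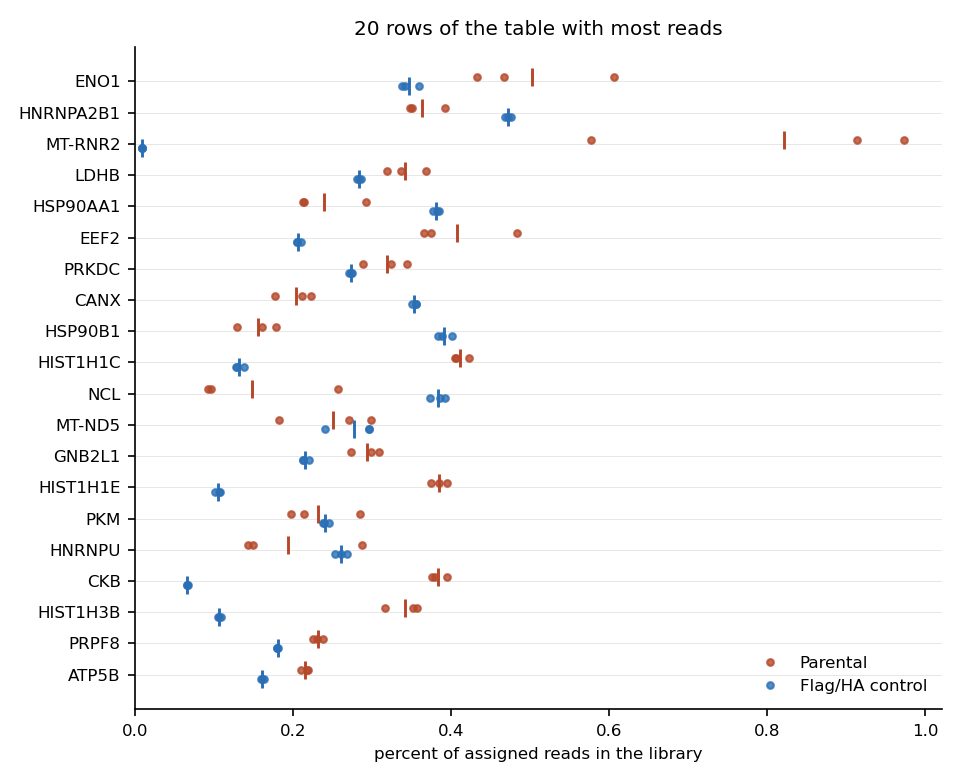
Share of assigned reads (x axis, percent) of the 20 rows of the table with the highest mean share, 1 point per library and a bar at each group mean (n = 3 each). ENO1 has the highest mean share of the protein-coding genes over the 6 libraries and in the Parental line, HNRNPA2B1 lies above it in the control, the histones and CKB stand right in the Parental libraries, HSP90AA1, HSP90B1, CANX and NCL stand right in the control, and MT-RNR2 is a mitochondrial ribosomal RNA.

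An Hsp90 of the cytosol, the Hsp90 of the endoplasmic reticulum (ER) and a lectin chaperone were among the leading genes that favoured the control line. HSP90AA1, the inducible cytosolic Hsp90, had normalised counts of 67448, 67577 and 97908 against 139478, 133067 and 135752 (log2 difference -0.83, SE 0.17, limma adjusted p = 0.0019). HSP90B1, the form in the ER, had 56488, 51112 and 42987 against 145161, 135547 and 138206 (log2 difference -1.48, SE 0.13, limma adjusted p = 1.64e-05). CANX, the lectin chaperone calnexin of the ER membrane, had 70406, 67289 and 59378 against 128634, 123528 and 126447 (log2 difference -0.95, SE 0.12, limma adjusted p = 0.000121). None of these overlapped between the lines. CKB, the brain-type creatine kinase that buffers ATP, favoured the Parental line with 118665, 125579 and 127055 against 23974, 23512 and 23185 (log2 difference 2.39, SE 0.093, limma adjusted p = 3.13e-07), about the same in all 3 Parental libraries. The linker histone HIST1H1C had 133672, 129357 and 135368 against 49934, 45491 and 45181 (log2 difference 1.50, SE 0.11, limma adjusted p = 4.75e-06). The related linker histone HIST1H1E had 124928, 122224 and 125312 against 38962, 37269 and 35926 (log2 difference 1.73, SE 0.1, limma adjusted p = 1.59e-06).

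Leading genes could also hinge on 1 Parental library. NCL, the nucleolar protein nucleolin, had 29015, 30359 and 85848 against 142039.7, 131939 and 137210.1, with Parental replicate 3 far above the other Parental libraries and still below every control library (log2 difference -1.70, SE 0.38, limma adjusted p = 0.00306, and -2.21 without that replicate). HNRNPU, a scaffold protein of nuclear RNA, had 45091, 47269 and 96255 against 97381, 89232 and 92528, where Parental replicate 3 fell among the control libraries and the difference was not called (log2 difference -0.66, limma adjusted p = 0.0514). Without that replicate it was (log2 difference -1.01, limma adjusted p = 9.5e-08). The heavy chain of clathrin, CLTC, had 21881, 21623 and 59368 against 82382, 78434 and 80298 and was called (log2 difference -1.40, SE 0.35, limma adjusted p = 0.00594, and -1.89 without Parental replicate 3). WDR3, a nucleolar protein of ribosome assembly, had the widest spread of these, 17412, 69811 and 100317 against 10004, 9797 and 9716, over the Parental replicates (log2 difference 2.33, SE 0.55, limma adjusted p = 0.00419, and 1.83 without replicate 3). CLTC and WDR3 were picked after their values were seen. PKM, the pyruvate kinase of muscle and of growing cells, had 62332, 67938 and 95447 against 88989.5, 84365 and 84501 and was not called with replicate 3 (log2 difference -0.22, limma adjusted p = 0.261), but passed the test without it (log2 difference -0.40, limma adjusted p = 8.9e-05).

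Per full coding length, histones led in the table. The footprint density, in reads per kilobase of coding sequence scaled to the library's assigned reads (RPKM), was highest for HIST1H3B, a core histone H3, at 8305 ± 543 against 2597 ± 48.2 (mean ± SD, n = 3 each, Parental before the word against). Next came HIST1H4C, a core histone H4, at 6365 ± 371 against 3033 ± 23.9, and HIST1H1C at 6406 ± 156 against 2045 ± 89.1. Of the 10 densest coding genes 6 were histones, which are short and are made in bulk while DNA is copied. The other 4 were HNRNPA2B1 at 3423 ± 237 against 4445 ± 35.9, ENO1 at 3846 ± 701 against 2656 ± 88.8, LDHB at 3396 ± 254 against 2820.2 ± 20.4 and RPL38, a small protein of the large ribosomal subunit, at 2312 ± 96.9 against 3421 ± 62.3. In the control line HNRNPA2B1 was the densest gene of the 10 and RPL38 the next, ahead of every histone. The order of densities thus differed between the lines, while the 10 genes were dense in both.

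Some proteins known as abundant have coding sequences that resemble other genes, and EEF1A1, RPLP0 and TPT1 of these had few footprints in the table. EEF1A1, the elongation factor that brings tRNAs to the ribosome, had 2719.6, 2606 and 4083 against 16360.1, 15681 and 15895 normalised counts. Only 1.03% of the 28-base windows of its coding sequence occurred in no other, non-overlapping GENCODE gene. RPLP0, a stalk protein of the large subunit, had 2813, 2913 and 3011 against 3293, 3132 and 3338 and 15.0% such windows. GAPDH, a glycolytic dehydrogenase, was the 54th row by reads, with 41367, 48793 and 65663 against 23941, 23341 and 22877, and its share was 29.5%. TPT1, a small growth-related protein, had 3350.1, 2829 and 2808 against 6429, 5948 and 5919 and 50.4%. Median density over both lines was 6.07 RPKM for 105 coding genes under 10% unique windows, 24.8 for 429 genes at 10% to 50%, 29.3 for 2709 at 50% to 99% and 15.2 for 10203 at 99% or more. How reads with several positions were counted is not given in the sources used here, and its part in these levels was not tested. These 4 genes were picked after their values were seen. Levels of genes with few unique windows are therefore uncertain, ribosomal proteins among them, whose median share was 28.6%.

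Of 16627 genes tested, 13467 (81.0%) were called, 6996 higher (42.1%) and 6471 lower (38.9%) in the Parental line. Of the genes tested 1769 had every control library under 10 and 490 every Parental one, so that they were tested through 1 line alone and had to differ. With a minimum of 2-fold the calls were 7069 (42.5%), of which 4408 (26.5%) were higher and 2661 (16.0%) lower. The libraries of the lines did not overlap for 13876 genes (83.5%), 7166 higher (43.1%) and 6710 lower (40.4%). The median log2 difference over all genes tested was 0.04, and 0.19 where each library was scaled to its total of reads, so a difference of that size depends on the scaling. On simulated counts with these libraries' means and depths the test recovered 50.8%, 77.6% and 89.4% of 1.5-, 2- and 4-fold changes over 16310 genes. Of the calls there 3.97% were false. Few genes were changed in the simulation, and its spread was assumed and alike in all libraries. These rates cannot be carried over to the real libraries, where most genes were called and Parental replicate 3 stood apart. Most genes thus differed between the lines by more than the spread of these replicates. Each list below is read against 42.1% and 38.9%, but these percentages changed with abundance. Of 4157 genes with mean normalised counts of 5.35 to 52.7, 57.6% were higher and 20.4% lower (median log2 difference 1.32). Of the 4157 genes with the highest means, 1967 or more, 27.0% were higher and 56.3% lower (median -0.35). Lists of highly read genes can therefore lean lower as such genes do in general, and no list was compared with genes of like abundance.

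A smaller group was alike, meaning that the 95% interval of the difference lay inside 1.5-fold in either direction. It held 3289 genes (19.8%), and LDHB, PRKDC, GNB2L1, PRPF8, ATP5B, CALR, CCT3, CCT7 and MCM7 were among those with the most reads. CALR, the soluble lectin chaperone of the ER, had 61961, 58942 and 55148 against 60440.3, 57742 and 58215 (95% interval of the log2 difference -0.23 to 0.23), whereas its membrane relative CANX differed. PRPF8, the core protein of the spliceosome, had 72896, 71529 and 79648 against 65644, 63487 and 63960 (95% interval -0.026 to 0.45). GNB2L1, the scaffold RACK1 of the small ribosomal subunit whose start is shown above, had 86456, 95018 and 103179 against 79842, 74925 and 75383 (95% interval 0.029 to 0.58). ATP5B, the catalytic subunit of ATP synthase, had 68799, 69586 and 70246 against 59164, 56696 and 56655. Some alike genes still passed the test, such as CCT7, a subunit of the ring chaperone CCT, at 38754, 37150 and 39058 against 50796, 48805 and 49655 (log2 difference -0.38, SE 0.086, limma adjusted p = 0.00353).

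The proteins of the cytosolic ribosome took a larger share of reads in the Parental line, 2.95%, 2.88% and 2.83% against 2.37%, 2.33% and 2.31%. The means of 2.89% ± 0.062 and 2.33% ± 0.032 (SD, n = 3 each) did not overlap, and the exact two-sided permutation test gave p = 0.1, the smallest that 3 against 3 libraries allow. As single genes they did not move together, since 34 of 83 tested were higher and 26 lower, with a median of 0.05. Among the small-subunit proteins 19 of 33 were higher and 9 lower. FAU, which carries the ribosomal protein eS30 behind a ubiquitin-like part, had 12843, 11928 and 12076 against 3949.5, 3785 and 3717 (log2 difference 1.69, SE 0.061, limma adjusted p = 2.3e-07). RPS29, a small-subunit protein, had 5599, 6063 and 6353 against 2081, 1987 and 1868 and was also called. RPS12 and RPS25, of the same subunit, were lower, at 2508, 2222 and 2167 against 6531, 6472 and 6419 and at 4843, 3986 and 3968 against 12304, 11589.9 and 11685. Proteins of the large subunit were split, with 15 of 50 higher and 17 lower. RPL18 had 39948, 40239 and 39115 against 8337, 7589 and 7597 (log2 difference 2.34, SE 0.072, limma adjusted p = 1.37e-07) and RPL29 had 2849.9, 2889 and 2907 against 361, 360.1 and 327 (log2 difference 3.04). Lower were RPL36A, with 127, 114 and 138 against 589.9, 756 and 674, and RPL22L1, a close relative of RPL22, with 577, 577 and 590.2 against 1295, 1256 and 1289.8. RPL11, the most read of them and also a regulator of MDM2, had 37692, 36070.2 and 37379 against 35479.9, 35666 and 35298 and did not pass the test (limma adjusted p = 0.49).

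Genes with a TOP start had about the same median difference as genes without one. The motif was present at the annotated start of 49 of 69 matched ribosomal protein genes (71.0%) and of 12 of 16 matched genes from a list of known TOP mRNAs outside the ribosome (75%), against 988 of 15843 coding genes (6.24%). Of matched elongation and termination factors 4 of 13 held it (30.8%). Of matched initiation factors and poly(A)-binding proteins 9 of 36 did (25%). The motif was searched as C followed by 4 bases that are each C or T, read on the gene's strand at the first base. With such a run anywhere within 10 bases of the start, the shares were 88.4% of ribosomal protein genes and 41.1% of all coding genes. The split below thus depends on 1 annotated base. Among the 100 nuclear genes with most reads 10 of 86 matched held it at the first base (11.6%), and of the 100 densest 18 of 84 (21.4%). No histone of 45 matched held it there. The 818 tested genes with this start had a median log2 difference of -0.07, with 313 higher and 339 lower, and 10306 genes without it had -0.11. On the list of known TOP mRNAs outside the ribosome 17 of 22 were lower and 3 higher (median -0.66). A median of 57.9% of these genes' windows were unique, and part of the lean went with codon makeup, as given below. NAP1L1, a histone chaperone on this list, had 11135, 10905 and 11743 against 33861, 30859 and 32624 (log2 difference -1.53, SE 0.074, limma adjusted p = 7.35e-07). Against the list's direction stood EEF2 and EEF1D, a subunit of the nucleotide exchange factor of elongation, with 3133, 3238 and 3337 against 1953, 2047 and 2028 (log2 difference 0.69, SE 0.055, limma adjusted p = 8.14e-06).

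The factors that run translation did not share a direction. Of the elongation and termination factors 6 of 14 were higher and 8 lower (median -0.43). EEF1A2, the muscle and brain form of the tRNA carrier, had 3624, 3859.6 and 3745 against 2094, 1992 and 1979 (log2 difference 0.89, SE 0.056, limma adjusted p = 2.34e-06), and EEFSEC, the factor that inserts selenocysteine, had 930, 1069 and 1064 against 489, 489 and 453 (log2 difference 1.09). ETF1, which reads stop codons, was lower with 5686, 5741 and 6017 against 14302, 14307 and 14218 (log2 difference -1.30, SE 0.058, limma adjusted p = 5.24e-07), and so was EEF1A1 (log2 difference -2.38), subject to the uncertainty above. Of the initiation factors and poly(A)-binding proteins 13 of 44 were higher and 24 lower (median -0.34). EIF3A, the largest subunit of the initiation factor that recruits the small ribosomal subunit, had 21589, 24107 and 33923 against 51818, 49499.9 and 50404 (log2 difference -0.96, SE 0.16, limma adjusted p = 0.000625). The related repressors of cap binding differed in direction. EIF4EBP1 had 4784, 4479.9 and 3409 against 916, 854 and 803 (log2 difference 2.29, SE 0.12, limma adjusted p = 1.15e-06), and EIF4EBP2 had 649, 585 and 539 against 2098, 2316 and 2128 (log2 difference -1.88, SE 0.083, limma adjusted p = 4.89e-07). EIF6, which keeps the subunits apart, had 5124, 5438 and 5461 against 2895, 2744 and 2684, and EIF1AX, a factor of start site scanning, had 1069, 925 and 806 against 2742, 2482 and 2619.

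Enzymes that charge tRNAs held 0.736% to 0.831% of Parental and 0.772% to 0.781% of control reads, with 6 of 22 higher and 9 lower (median -0.09). The subunits of a single enzyme, phenylalanyl-tRNA synthetase, went opposite ways. FARSA had 11373, 12301 and 14005 against 3401, 3254 and 3026 (log2 difference 1.96, SE 0.088, limma adjusted p = 5.34e-07), whereas FARSB had 6679.9, 7201 and 8058 against 11119, 10662 and 10624 (log2 difference -0.57, SE 0.08, limma adjusted p = 0.000221). In FARSA 20.3% of codons end in A or T, and in FARSB 62.4%. VARS, the valine enzyme, had 13847, 14053 and 16119.6 against 8051, 7848 and 7764, while EPRS, the joined enzyme for glutamate and proline, had 21180.2, 20864 and 29446 against 36595, 35375 and 34599 and DARS, for aspartate, had 6847, 7278 and 8504 against 11561, 10865 and 11334. All 3 were called. Ribosome assembly and nucleolar genes were also mixed, with 15 of 37 higher and 14 lower (median -0.06). RRP9, of the small nucleolar complex of early processing, had 1529.8, 1476 and 1583 against 722, 685 and 694 (log2 difference 1.13, SE 0.06, limma adjusted p = 1.08e-06), and WDR43, of the small-subunit processome, had 6092, 6022 and 5856 against 10231, 9961 and 9972 (log2 difference -0.75, SE 0.056, limma adjusted p = 5.8e-06). The large-subunit assembly factor PPAN had 335, 248 and 372 against 17.7, 26.3 and 20.1 and WDR12, also of large-subunit assembly, had 3137, 3276 and 3745 against 5642, 5313 and 5808.

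**Figure D2:**
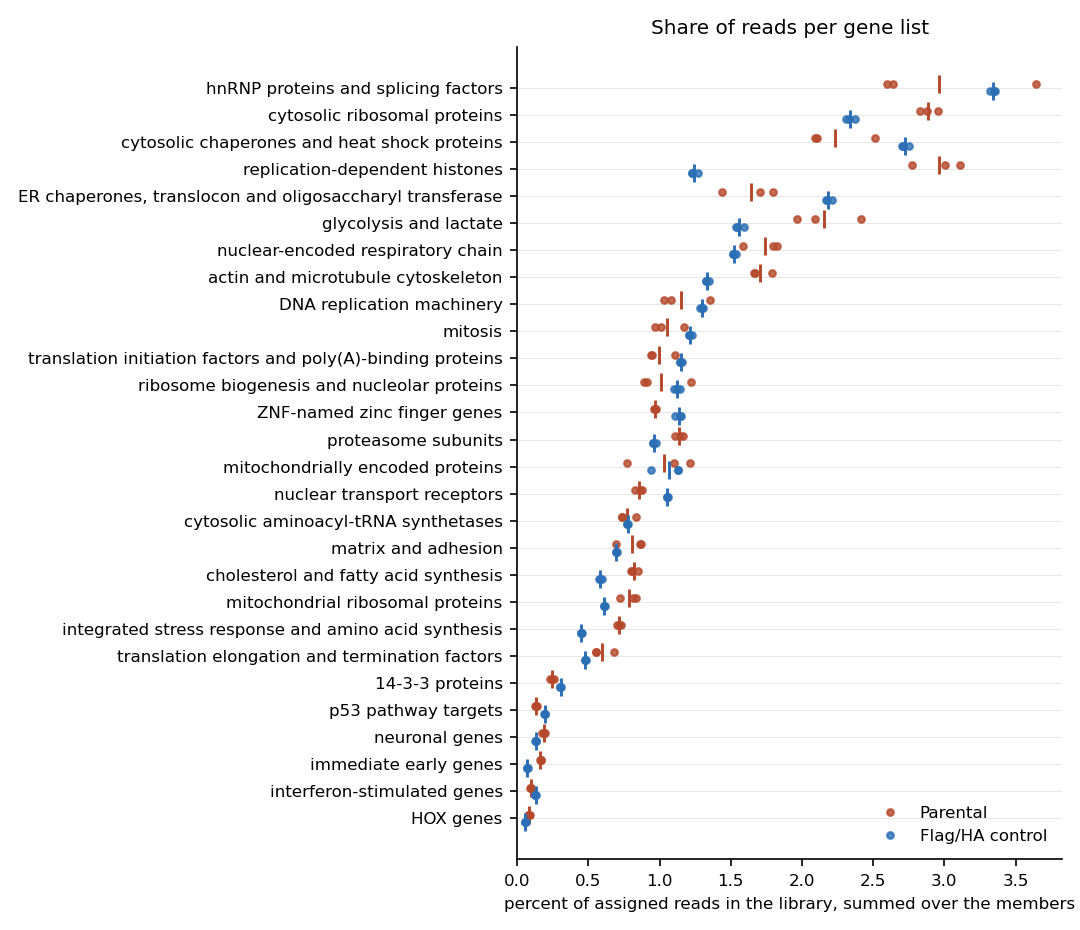
Share of assigned reads summed over the members of each gene list (x axis, percent), 1 point per library and a bar at each group mean (n = 3 each). Splicing factors, ribosomal proteins, chaperones and histones hold the largest shares, the histones lie apart between the lines, and Parental replicate 3 is the point at 3.65% for splicing factors. The order of lists is uncertain where few windows are unique, as in ribosomal proteins (median 28.6%).

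Heterogeneous nuclear ribonucleoproteins (hnRNPs) and splicing factors held the largest share of any list in the control line, 2.60%, 2.64% and 3.65% against 3.35%, 3.32% and 3.35%, and the Parental libraries straddled the control. Their rank against ribosomal proteins is uncertain, since the median of unique windows was 96.8% here and 28.6% for ribosomal proteins. Of 56 hnRNP and splicing genes 13 were higher and 26 lower (median -0.41), and without Parental replicate 3 these were 15 and 34 (median -0.58). HNRNPA0, a single-exon hnRNP, had 15594, 15276 and 17735 against 6348, 6367 and 6235 (log2 difference 1.36, SE 0.074, limma adjusted p = 1.21e-06), and SF3A2, of the U2 particle, had 7096, 8395 and 11463 against 2457, 2213 and 2280.4 (log2 difference 1.93). SRSF11, a serine- and arginine-rich splicing factor, had 8199, 8035 and 7949.6 against 14075, 14038 and 14219 (log2 difference -0.81, SE 0.058, limma adjusted p = 4.65e-06), and HNRNPA3 had 366, 401 and 417 against 838, 1052 and 923 with 6.04% unique windows. Nuclear transport receptors leaned the same way, with 4 of 26 higher and 18 lower (median -0.57). KPNB1, the main import receptor, had 37574, 35341 and 44081 against 63248, 61713 and 61669.5 (log2 difference -0.68, SE 0.11, limma adjusted p = 0.000517). IPO11, another importin, had 4624, 4209 and 4216 against 9321, 9257 and 9216, and the import adaptor KPNA4 had 1711, 1720 and 1954 against 4389, 4136 and 4123. NUTF2, the small carrier that returns Ran to the nucleus, went against the others with 5777, 5858 and 5436 against 867, 828 and 831 (log2 difference 2.75, SE 0.057, limma adjusted p = 6.99e-08).

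Protein folding genes of cytosol and ER were more often lower than higher. Of the cytosolic chaperones 12 of 47 were higher and 27 lower (median -0.34), with shares of 2.09%, 2.10% and 2.51% against 2.75%, 2.70% and 2.71%. HSPBP1, a nucleotide exchange partner of Hsp70, had 6152, 6606 and 6613 against 1103, 1089 and 1146 (log2 difference 2.54, SE 0.057, limma adjusted p = 6.99e-08), and DNAJB1, an Hsp70 partner that rises on heat shock, had 4008, 3996 and 4438 against 1558, 1593 and 1644 (log2 difference 1.37). DNAJC7, a partner of Hsp70 and Hsp90, had 5543, 5651 and 6624 against 11741, 11251 and 11149 (log2 difference -0.94, SE 0.081, limma adjusted p = 1.23e-05), and ST13, an Hsp70 helper with 7.76% unique windows, had 701, 699 and 764 against 1371, 1458 and 1302. Of the ER list, chaperones with the translocon and the sugar-transfer complex, 8 of 48 were higher and 29 lower (median -0.51). Its share was 1.80%, 1.70% and 1.44% against 2.21%, 2.17% and 2.18%, with no overlap. DNAJC3, an ER co-chaperone that also inhibits an eIF2α kinase, had 1900.5, 1884 and 1740.3 against 6755, 6620.4 and 6902 (log2 difference -1.88, SE 0.058, limma adjusted p = 1.49e-07), and SEC62, of the translocon, had 3969, 4105 and 4159 against 9257, 8811 and 8976 (log2 difference -1.14, SE 0.056, limma adjusted p = 7.34e-07). SDF2L1, a small ER protein of the unfolded protein response, had 1886, 1823 and 1676 against 700, 775 and 779, and DDOST, of the sugar-transfer complex, had 23973, 24045 and 20281 against 15745, 14843 and 15082, both higher.

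The machine that degrades proteins was split, with 13 of 34 proteasome subunits higher and 17 lower (median -0.15). PSMB2, a subunit of the proteolytic core, had 33022, 38681 and 34639.8 against 18994, 18300 and 17971 (log2 difference 0.94, SE 0.087, limma adjusted p = 1.89e-05), and PSMB6, a catalytic subunit, had 12516, 11956 and 11322 against 4293, 4291 and 4143 (log2 difference 1.49). In the regulatory cap PSMD8 had 26509, 24599.9 and 21234 against 8198, 7682 and 7382 and PSMD7 had 3043, 3010 and 3144 against 6983, 6476 and 6718, again opposite within a complex. The ATPase subunit PSMC6 had 1495, 1634 and 1810.4 against 3619, 3457 and 3641. The regulatory 14-3-3 proteins counted 1 of 7 higher and 4 lower. YWHAE had 40364, 38379 and 40910.1 against 62886, 59867 and 61085 (log2 difference -0.62, SE 0.09, limma adjusted p = 0.000277) and YWHAZ, with 7.59% unique windows, had 1415, 1266 and 1225 against 4081, 3829 and 3722. SFN, the epithelial form, had 131, 136 and 141 against 41.8, 34.7 and 36.5.

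Glycolytic and lactate genes took more reads in every Parental library than in any control library, 1.96%, 2.09% and 2.41% against 1.59%, 1.54% and 1.54%. Of 29 genes 13 were higher and 5 lower (median 0.38), and without Parental replicate 3 the counts were 14 and 9 with a median of 0.21. NDRG1, a stress and hypoxia response gene, had 8516, 8964 and 8349 against 2725, 2637 and 2595 (log2 difference 1.70, SE 0.057, limma adjusted p = 1.87e-07). The glucose transporters went opposite ways, SLC2A1 with 10453, 10365 and 9506 against 4303, 3977 and 4069 (log2 difference 1.30, SE 0.065, limma adjusted p = 8.43e-07) and SLC2A3 with 102, 102 and 91.4 against 439, 476 and 466 (log2 difference -2.22, SE 0.099, limma adjusted p = 5.22e-07). P4HA1, a collagen prolyl hydroxylase of the hypoxia response, had 3529.8, 3406 and 3217 against 6900.3, 6416 and 6802. Cholesterol and fatty acid genes had 16 of 32 higher and 9 lower (median 0.26). FASN, the fatty acid synthase, had 61560.1, 63839 and 82313 against 34967, 33283 and 33013 (log2 difference 1.02, SE 0.13, limma adjusted p = 0.000113), DHCR7, the last enzyme of cholesterol synthesis, had 9706, 9921 and 8764 against 3972, 3663 and 3672 and SREBF1, a transcription factor of these pathways, had 3837, 3899 and 3840.2 against 1843, 1604 and 1713. STARD4, a sterol carrier, was lower with 1153, 1072 and 959 against 2384, 2500.3 and 2563, as was HSD17B7, a sterol reductase, with 215, 215 and 196 against 561, 514 and 485.

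Mitochondrial proteins made in the cytosol leaned little, beside 42.1% higher and 38.9% lower of all genes tested. Of the nuclear-encoded respiratory chain 40 of 78 were higher and 27 lower (median 0.20), and of the mitochondrial ribosomal proteins 37 of 75 and 19 (median 0.15). Both medians are of the size that depends on the scaling. In the other 9 libraries of the series, treated below, the counts were 37 and 32 (median 0.08) and 45 and 14 (median 0.30). NDUFA11, a complex I subunit, had 3736, 3645 and 4063 against 384, 291 and 333 (log2 difference 3.51, SE 0.1, limma adjusted p = 1.22e-07), and ATP5D, of ATP synthase, had 4185, 4178 and 3551 against 1023, 1037 and 973 (log2 difference 1.97). ATP5I, of the same ATP synthase, had 3154, 3147 and 2805 against 7685, 7583 and 7565 (log2 difference -1.33, SE 0.064, limma adjusted p = 7.21e-07) and NDUFB3, of complex I, had 2845, 2676 and 2627 against 5762, 5383 and 5449.6. MRPS12 of the mitochondrial small subunit had 6050.2, 5991 and 5528 against 1189, 1114 and 1037 (log2 difference 2.40, SE 0.07, limma adjusted p = 1.2e-07) and MRPL4 of the large subunit had 5541, 5576 and 4886 against 1672, 1614 and 1546, while MRPL39 had 4716, 4608 and 4076 against 11306, 10644 and 11099, MRPL1 had 1184, 1214 and 1135 against 1914, 1755 and 1814 and MRPL51, the most read of the list, had 6869, 6375 and 5928 against 9524, 9192 and 8972. The 13 genes read on mitochondrial ribosomes held 1.10%, 1.21% and 0.774% against 0.941%, 1.13% and 1.13% of reads, overlapping between the lines, and 3 were higher and 6 lower. MT-CO1 and MT-CO3, of cytochrome oxidase, had 52704, 57803 and 39579 against 25092, 26033 and 25419 and 36796, 40977 and 30751 against 19164, 22492 and 21443. MT-ND4, of complex I, had 21679.6, 25160.2 and 17386 against 50650.1, 61327 and 59614 (log2 difference -1.43). MT-ND6, the only protein gene on the light strand, had 4759, 5042 and 4358 against 40332, 46951 and 51653 (log2 difference -3.29, SE 0.11, limma adjusted p = 1.66e-07). Unequal direction within this list meant that the lines divided about the same mitochondrial share differently among its mRNAs.

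The histones made during DNA replication had the largest median of the lists with at least 20 genes tested. They took 3.11%, 3.01% and 2.77% against 1.27%, 1.23% and 1.23% of reads, 46 of 50 tested genes were higher and 2 lower (median 1.51), and of 5 with at least 99% unique windows all 5 were higher. HIST1H2AE, a core histone H2A, had 5594, 5068 and 5475 against 653, 618 and 654 (log2 difference 3.06, SE 0.062, limma adjusted p = 6.99e-08), and the core histone HIST1H3B had 112879, 111696 and 105731 against 39481, 37124 and 37710 (log2 difference 1.53, SE 0.099, limma adjusted p = 2.8e-06). Of the 50 genes 12 had every control library under 10, so that they passed the filter on low values through the Parental libraries alone and had to differ. HIST1H2AL, also an H2A, was among these, with 2639, 2407 and 2534 against 3.80, 2.39 and 3.77. The lower ones were HIST1H2AM with 1235, 1199 and 1351 against 2244, 2298 and 2301 (log2 difference -0.86, SE 0.063, limma adjusted p = 5.35e-06) and HIST1H4I with 28.3, 26.1 and 23.4 against 45.6, 55.0 and 35.2 (log2 difference -0.76, SE 0.22, limma adjusted p = 0.0126). In bulk lysates more cells in the phase of DNA synthesis and more histone footprints per cell cannot be told apart. Of the replication machinery 10 of 47 were higher and 26 lower (median -0.28), and how this relates to the histone difference was not tested. TOP2A, the topoisomerase of dividing cells, had 29632, 29449 and 45723 against 59921, 55505 and 58040.2 (log2 difference -0.76, SE 0.17, limma adjusted p = 0.00348). Of replication genes, ORC5 of the origin complex had 2779, 2619 and 2538 against 4910.3, 4819 and 4713 and POLD3 of polymerase delta had 1571, 1543 and 1629 against 2775, 2668 and 2720.4, both lower. CDT1, which licenses origins, had 4694, 5698 and 6029 against 1385, 1381 and 1399 (log2 difference 1.97, SE 0.092, limma adjusted p = 6.02e-07) and POLD1, the catalytic subunit of polymerase delta, had 4266, 4514 and 5351 against 1768, 1724 and 1657, both higher.

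Genes of cell division resembled the replication genes, with 14 of 45 mitotic genes higher and 22 lower (median -0.24). CENPF, a large kinetochore-associated protein, had 23447, 24768 and 26149 against 41247, 39300.1 and 40027 (log2 difference -0.70, SE 0.083, limma adjusted p = 8.33e-05), CENPE, a kinetochore motor, had 5979.8, 5782 and 5783 against 11656, 11298 and 11275, and ECT2, the exchange factor that sets the cleavage furrow, had 3789.6, 3811 and 4536 against 9376, 9356 and 9313. SPC24, a short kinetochore protein, had 2873, 2672 and 2747 against 1023, 998 and 933 (log2 difference 1.49, SE 0.062, limma adjusted p = 4.09e-07), and CENPA, the centromeric histone H3, had 1104, 1021 and 1047 against 371, 362 and 343. The cytoskeleton had 22 of 46 higher and 11 lower (median 0.25). STMN1, which destabilises microtubules, had 56210, 58331 and 48546 against 28324, 27715 and 27969.8 (log2 difference 0.95, SE 0.099, limma adjusted p = 3.73e-05), and TUBA1A and TUBB6, forms of α- and β-tubulin, had 2167, 2365 and 2462 against 692, 645 and 634 and 3339, 3167 and 3189 against 1465, 1408 and 1365. MACF1, a giant linker of actin and microtubules, had 2641, 2814 and 3466 against 12628, 12083 and 12408 (log2 difference -2.07, SE 0.099, limma adjusted p = 6.99e-07), and KIF5B, a kinesin heavy chain, had 14386, 13266 and 13029 against 31840.5, 31007 and 31741.

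Genes of the integrated stress response, through which cells raise amino acid supply when translation initiation is curbed, stood higher in the Parental line. Of 36 tested 25 were higher and 5 lower (median 0.66), with shares of 0.702%, 0.726% and 0.711% against 0.451%, 0.448% and 0.447%. SLC1A5, a glutamine transporter, had 42457, 42432 and 39405 against 10478, 10036 and 10266 (log2 difference 2.01, SE 0.072, limma adjusted p = 2.33e-07), and PYCR1, of proline synthesis, had 2461, 2455 and 2105 against 387, 413 and 368 (log2 difference 2.58, SE 0.083, limma adjusted p = 1.69e-07). ATF4, the response's transcription factor, had 5682, 5841 and 5633 against 2908, 3082 and 2918 (log2 difference 0.95, SE 0.055, limma adjusted p = 1.57e-06), and its targets CHAC1, which breaks down glutathione, and DDIT3, a transcription factor of cell death, had 279, 263 and 263 against 35.4, 28.7 and 36.5 and 498, 428 and 327 against 144, 92.1 and 107. ATF4, CHAC1 and DDIT3 were picked after their values were seen. Lower were SLC38A2, a neutral amino acid transporter, with 18969.8, 19601 and 16744 against 29471, 28891 and 29184 (log2 difference -0.67, SE 0.085, limma adjusted p = 0.000123), and ALDH1L2, of mitochondrial folate metabolism, with 1418, 1426 and 1223 against 1944, 2098 and 2129.6.

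Immediate early genes, which switch on within minutes of a growth signal, had 24 of 32 higher and 3 lower (median 0.91). MYC, the growth-promoting transcription factor, had 14074, 15627 and 16258 against 2915, 2762 and 2661 (log2 difference 2.46, SE 0.074, limma adjusted p = 1.25e-07). JUN, a subunit of AP-1, had 13483, 13434 and 15729 against 8952, 8902 and 8692 (log2 difference 0.68, SE 0.079, limma adjusted p = 7.06e-05) and IER5 had 2373, 2324 and 2392 against 1154, 1131 and 1124. SPRY2, a brake on receptor signalling, was lower with 658, 699 and 541 against 979.8, 1059 and 1069, and so was the kinase SGK1 with 139, 136 and 148 against 243, 240.5 and 211. Targets of p53 had 11 of 29 higher and 16 lower (median -0.38). MDM2, which degrades p53, had 5235, 4854 and 4936 against 17937, 17473 and 17725 (log2 difference -1.82, SE 0.061, limma adjusted p = 1.85e-07) and C12orf5, a fructose bisphosphatase, had 1093, 1041 and 994 against 2579, 2500.3 and 2612, whereas the cell death gene BBC3 had 1040.1, 911 and 840.2 against 101, 126 and 96.8 and the AKT inhibitor PHLDA3 had 1614, 1546 and 1569.6 against 235, 248 and 223. Interferon-stimulated genes had 11 of 35 higher and 19 lower (median -0.54). SAMD9, an antiviral factor, had 176, 163 and 207 against 1151, 1122 and 1125 (log2 difference -2.64, SE 0.099, limma adjusted p = 2.78e-07) and PARP14, an ADP-ribosyltransferase, had 934, 846 and 1043 against 3081, 3028 and 2964. The light chain of class I antigen presentation, B2M, had 14403, 14385 and 10477 against 20106, 18623 and 18719 (log2 difference -0.56, SE 0.13, limma adjusted p = 0.00336). IFI6 and OAS3, of the antiviral state, had 1096, 1142 and 1067 against 567, 481 and 517 and 220.2, 229 and 238 against 83.5, 75.4 and 90.5 and were higher.

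**Figure D3:**
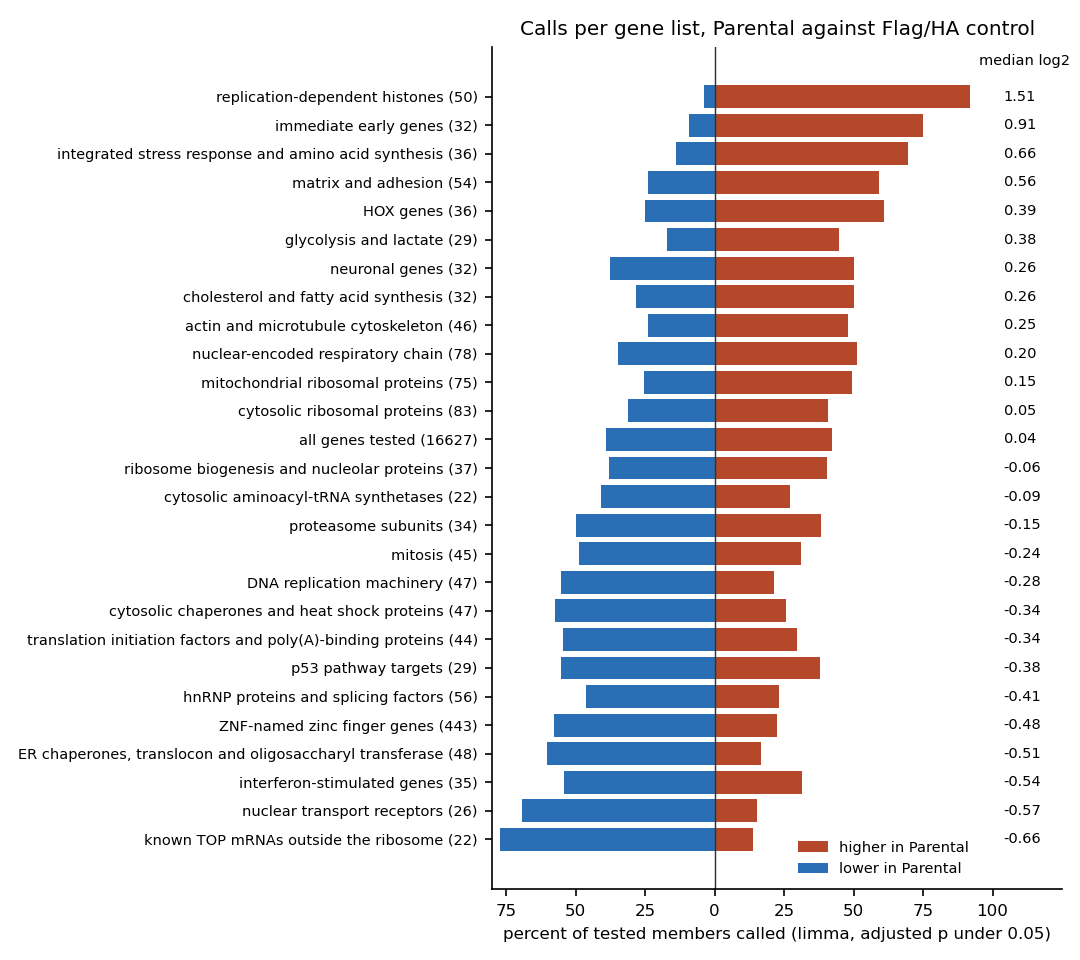
Percentage of tested members of each gene list called by limma at an adjusted p under 0.05 (x axis), higher in Parental to the right and lower to the left, with the number tested in brackets and the list's median log2 difference beside it. Histones have 46 of 50 members to the right, known TOP mRNAs outside the ribosome 17 of 22 to the left, and the bar for all 16627 genes gives 42.1% and 38.9%. Among the 50 histones, 12 passed the filter through the Parental libraries alone and had to differ.

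Genes of cell identity gave further differences. Matrix and adhesion genes had 32 of 54 higher and 13 lower (median 0.56). FBN2, an embryonic fibrillin and the most read of them, had 29571, 29500.2 and 26302 against 26605, 26256 and 26066 and was not called (limma adjusted p = 0.24), though it was without Parental replicate 3. COL4A2 of basement membrane had 14541, 14748 and 13691 against 4834, 4699 and 4789.6 (log2 difference 1.58, SE 0.06, limma adjusted p = 2.83e-07) and the fibrillar collagen COL5A1 had 1807, 1869 and 1764 against 341, 419 and 373 (log2 difference 2.27, SE 0.085, limma adjusted p = 2.8e-07). ITGAV, an integrin, had 4458, 4387 and 3829 against 9091, 8792 and 8866 and the matrix protease MMP14 had 4.05, 5.21 and 6.10 against 43.0, 53.8 and 74.2, both lower. HOX genes, which record position along the body, had 22 of 36 higher and 9 lower (median 0.39). HOXB9, the most read, had 3554, 3444 and 2998 against 2319, 2259.8 and 2334 (log2 difference 0.53, SE 0.073, limma adjusted p = 0.000205) and HOXA13 had 2899, 2771 and 2892 against 927, 1071 and 979, whereas HOXD10 had 197, 202 and 196 against 699, 836 and 871 (log2 difference -2.00, SE 0.099, limma adjusted p = 7.92e-07) and HOXA5 had 898, 857 and 988 against 1972, 1955 and 2000.1. Within the D cluster HOXD11 had 589, 598 and 665 against 243, 250 and 250.2, opposite to its neighbour HOXD10. Neuronal genes had 16 of 32 higher and 12 lower (median 0.26), near the 42.1% and 38.9% of all genes tested. Among the 32, 2 had every control library under 10 and had to differ. UCHL1, an abundant neuronal deubiquitinase, had 41613, 39992 and 40239.6 against 30509, 28529 and 29216 (log2 difference 0.47, SE 0.081, limma adjusted p = 0.000787), and the synaptic vesicle protein SYP had 939, 927 and 931 against 324, 272 and 294. SCG3, of secretory granules, had 89.8, 66.9 and 77.2 against 275, 270.4 and 287 and the synaptic adhesion protein NLGN3 had 18.6, 13.9 and 12.2 against 94.9, 62.2 and 94.3, both lower.

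The labelled cell type was checked by markers. All 9 HEK293 markers passed the filter on low values, 2 were higher and none lower, and VIM, the intermediate filament vimentin, led with 18695, 19432 and 27638 against 18486, 17454 and 17666. PAX2, a kidney transcription factor, had 215, 224 and 229 against 137, 141 and 117 (log2 difference 0.76, SE 0.11, limma adjusted p = 0.000342), and NEFL, a neurofilament, had 306, 268 and 309.9 against 24.1, 31.1 and 37.7 (log2 difference 3.23, SE 0.18, limma adjusted p = 1.43e-06). Of 10 fibroblast markers 6 passed the filter and 4 were higher, with summed shares of 0.0022% to 0.0025% against 0.0005% to 0.0006% of reads. Of these 6, 2 had every control library under 10, so they passed through the Parental libraries alone and had to differ. COL3A1, a fibrillar collagen, had 258, 258 and 265 against 15.2, 8.37 and 12.6 (log2 difference 4.36, SE 0.22, limma adjusted p = 8.48e-07) and COL1A1, the chain of type I collagen, had 279, 301 and 447 against 79.7, 89.7 and 70.4. Blood markers passed for 2 of 11 genes, 1 of them through the Parental libraries alone. The other was HBB, a haemoglobin chain, with 110.1, 114 and 167 against 786, 684 and 589.6. None of 10 hepatocyte markers passed, and of 9 squamous markers S100A2 did, with 12.1, 18.2 and 22.4 against 40.5, 29.9 and 33.9, while 6 had at most 3 reads in every library. The part of other cells or of stray reads in these low values was not tested.

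At the extremes single genes had far fewer reads, or none, in 1 of the control lines. Most of these differences recurred between the other lines of the series with the same handling, as given below. MYOD1, the muscle determination factor, had 4712, 3885 and 2851 against 0, 0 and 1.26, 13100 reads against 1 (95% interval of the ratio of normalised counts 1634- to 3.597e+05-fold, counting error only). KCNE1, a subunit of a cardiac potassium channel, had 1410, 1523 and 813 against 0, 0 and 0, at least 1007-fold higher with 3 reads over the group as the floor. KRTAP10-2, a hair keratin-associated protein, had 1221, 869 and 231 against 0, 0 and 0, at least 624-fold higher. IL1RAPL1, a synaptic receptor, had 441, 633 and 464 against 0, 0 and 0, at least 414-fold higher, and NCR1, a receptor of natural killer cells, had 220.2, 279.7 and 196 against 0, 0 and 0, at least 187-fold higher. FAM159B had 10585, 12111 and 2239 against 44.3, 27.5 and 25.1 and PDE6A, the phosphodiesterase of rods, had 2744, 2429.8 and 873 against 0, 4.79 and 1.26, both lowest of the Parental libraries in replicate 3, as were KRTAP10-2, JRK and CA4. The log2 difference of FAM159B was 7.67, and 8.45 without that replicate, and that of JRK 6.95 and 7.61. The transcription factor SALL3 had 498, 1124 and 482 against 0, 2.39 and 2.51, the histone variant gene H3F3C had 3916, 3247 and 3761 against 39.2, 25.1 and 27.7, JRK had 980.2, 691 and 209 against 1.27, 2.39 and 8.80 and the carbonic anhydrase CA4 had 443, 450 and 96.5 against 0, 1.20 and 0. Of KCNE1's windows 15.4% were unique, so its reads may belong to a similar gene. In the other direction the highly similar golgins GOLGA8B and GOLGA8A had 0, 4.34 and 3.05 against 1204, 1403 and 1272 and 7.28, 6.95 and 14.2 against 1913, 2164 and 2149.7, with 4.32% and 4.12% unique windows. CCDC151, needed for outer dynein arms of cilia, had 65.6, 66.0 and 71.1 against 2627, 2128 and 2047 (log2 difference -5.04, SE 0.11, limma adjusted p = 6.99e-08). Lower as well were ZDHHC11 with 0.809, 1.74 and 6.10 against 211, 238 and 246, NPIPB4 with 0.809, 0.869 and 0 against 109, 95.7 and 102, the receptor GPR75 with 3.24, 0 and 0 against 78.5, 118 and 96.8, PNRC2, of mRNA decay, with 3.24, 0 and 0 against 55.7, 121 and 90.5, and C1orf192 with 0, 0.869 and 1.02 against 58.2, 105 and 79.2. The prion relative SPRN had 7.28, 2.61 and 1.02 against 135, 152 and 201, the platelet receptor subunit GP1BA had 0.809, 3.47 and 0 against 53.2, 103 and 94.3, the formyl peptide receptor FPR2 had 3.24, 2.61 and 1.02 against 110.1, 127 and 111 and the readthrough gene ANKHD1-EIF4EBP3 had 1.62, 1.74 and 0 against 46.8, 79.0 and 72.9. For the reads of such readthrough and duplicated genes the assignment is uncertain.

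Codon makeup went with the difference across all genes. Genes were put in quartiles by AT3, the percentage of codons of the longest GENCODE coding sequence that end in A or T, over 13446 genes. The median log2 difference was 0.97 in the quartile with the fewest such codons, then 0.24, -0.36 and -0.78, so that G- or C-ending codons went with higher Parental footprints. In the lowest quartile 76.7% of genes were higher and 8.27% lower, and in the highest 5.98% and 82.3%. Across genes Pearson's r of AT3 with the log2 difference was -0.554 and Spearman's rho -0.643. These are a description over genes that share libraries, depth and base composition. For 10203 genes with at least 99% unique windows the end quartiles had 0.96 and -0.80. The order held at each level of coding length, with 1.15 to -0.73 among the shortest genes and 0.92 to -0.78 among the longest. Weighted by reads, AT3 was 43.0%, 43.0% and 43.5% against 49.2%, 49.2% and 49.3%, means of 43.1% ± 0.276 and 49.2% ± 0.051 (SD, n = 3 each, exact two-sided permutation p = 0.1, the smallest possible). Library chemistry and base composition of the cells' mRNAs cannot be told apart here.

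**Figure D4:**
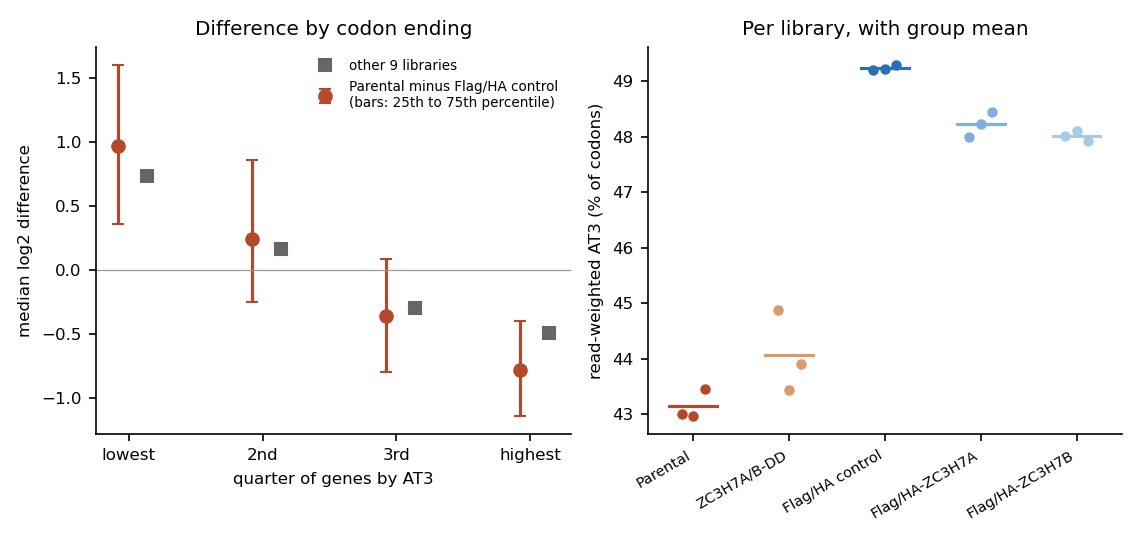
Left, the median log2 difference of genes in quartiles of AT3, the percentage of codons ending in A or T, for Parental minus Flag/HA control and for the other 9 libraries. Right, the read-weighted AT3 of every library with the mean of each of the 5 groups. The medians fall from 0.97 to -0.78, and the Parental libraries at 43.0% to 43.5% lie below the control libraries at 49.2% to 49.3%.

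Several leans of the lists shrank or turned once each gene was set against genes of like AT3, taken as the median of its own of 20 equal bins. Histones kept a median of 1.07 above their bins, the integrated stress response 0.70, matrix and adhesion 0.54 and mitochondrial ribosomal proteins 0.41. Of these lists, 12 of 50 histones and 2 of 54 matrix genes had every control library under 10 and had to differ, which can raise these medians. In addition 1 matrix gene and 1 mitochondrial ribosomal gene had every Parental library under 10. Medians without such genes were not taken. Immediate early genes, whose median AT3 is 23.5%, dropped to 0.06, and HOX genes, at 23.7%, turned to -0.35. The median of cytosolic chaperones went from -0.34 to -0.017, of the ER list from -0.51 to -0.19, of nuclear transport receptors from -0.57 to -0.11 and of the replication machinery from -0.28 to -0.017. That of known TOP mRNAs outside the ribosome, with a median AT3 of 56.3%, went from -0.66 to -0.30, and that of neuronal genes from 0.26 to 0.09. Zinc finger genes named ZNF, of which 100 of 443 were higher and 256 lower (median -0.48), have a median AT3 of 57.2% and came to 0.04. Among them ZNF703, a transcriptional repressor, had 13225, 13131 and 13560.5 against 2609, 2627 and 2616 (log2 difference 2.35, SE 0.053, limma adjusted p = 6.99e-08) with an AT3 of 12.2%, and ZNF266 had 418, 411 and 419.6 against 1601, 1802 and 1711 (log2 difference -2.03, SE 0.067, limma adjusted p = 1.75e-07) with 59.8%. ZNF711, the most read of them, had 36395, 34346 and 30879.9 against 46832, 46316 and 47433. ZNF580 had 1720, 1691 and 1499 against 153, 179 and 146 with an AT3 of 11.7%, and ZNF121 had 1495, 1449 and 1526 against 4458, 4718 and 4599 with 66.6%. Coding length showed a smaller slope, with medians of 0.19, 0.03, -0.18 and -0.37 from the shortest to the longest quartile. With the shortest annotated coding sequence in place of the longest, the ends of that slope became -0.20 and -0.19, so it depended on the transcript chosen, unlike AT3 at 0.86 and -0.72. By hydrophobic stretches in the protein, which mark membrane segments, the medians were -0.11 with none, -0.025 with 1 and -0.0043 with 2 or more.

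Classes of RNA outside the coding genes differed by larger factors than the coding total. Protein-coding rows held 97.9% ± 0.279 of Parental and 98.6% ± 0.038 of control reads (SD, n = 3 each). The 12S and 16S ribosomal RNAs of mitochondria took 0.935%, 0.994% and 0.590% against 0.0095%, 0.0088% and 0.0091%, with 16S, MT-RNR2, as the leading row at 288815, 309521 and 193309 against 3349, 3002 and 3148 normalised counts. Pseudogenes of ribosomal RNA followed, at 0.041% ± 0.0083 against 0.00039% ± 0.000022. Small structured RNAs went the other way. Mitochondrial tRNAs held 0.0029% ± 0.00085 against 0.0294% ± 0.0027, microRNAs 0.0032% ± 0.00051 against 0.0171% ± 0.0018, snoRNAs 0.0055% ± 0.00053 against 0.0298% ± 0.0018 and scaRNAs of Cajal bodies 0.00063% ± 0.000064 against 0.0544% ± 0.0067 (SD, n = 3 each). The related ribozyme RNAs differed in direction. RMRP, which processes ribosomal and mitochondrial RNA, had 558, 638 and 799 against 36852, 47656 and 48528 (log2 difference -6.06, SE 0.15, limma adjusted p = 8.33e-08), and RPPH1, the RNA of RNase P that trims tRNAs, had 6145, 6592 and 5315 against 60.8, 57.4 and 54.1 (log2 difference 6.68, SE 0.096, limma adjusted p = 3.58e-08). RMRP and RPPH1 were picked after their values were seen. None of these classes overlapped between the lines.

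**Figure D5:**
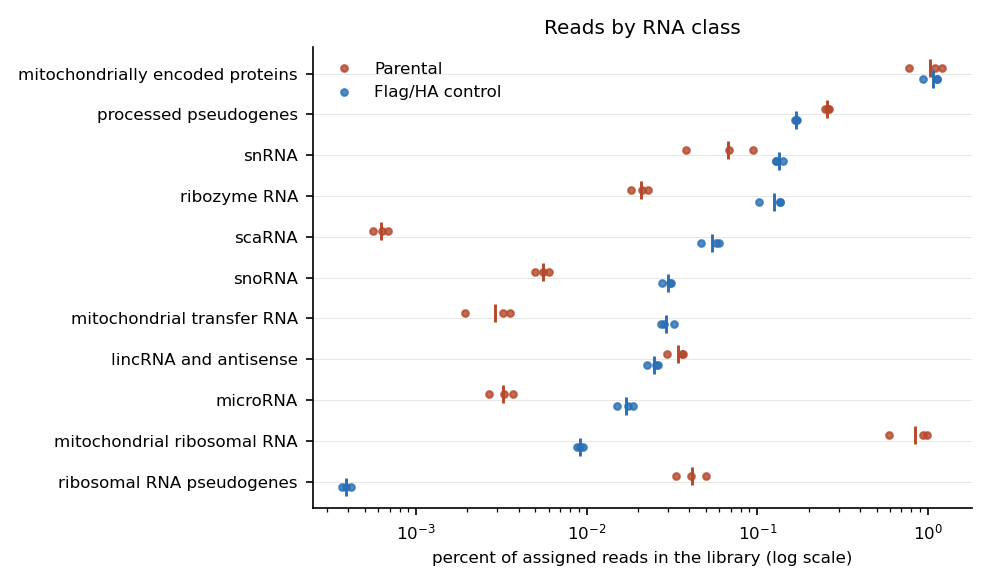
Share of assigned reads (x axis, percent, log scale) by class of RNA, 1 point per library. Mitochondrial ribosomal RNA and ribosomal RNA pseudogenes lie higher in the Parental libraries, and mitochondrial tRNA, microRNA, snoRNA, scaRNA and ribozyme RNA lie higher in the control libraries.

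The same lysis and kits were used for the other 9 libraries of the series, which share no library with the control lines. There the line labelled ZC3H7A/B-DD, handled as Parental, was compared with the mean of the lines labelled Flag/HA-ZC3H7A and Flag/HA-ZC3H7B, handled as Flag/HA control, and 14453 of 17581 genes were called (82.2%), 7366 higher (41.9%) and 7087 lower (40.3%). At 2-fold or more 7300 were called (41.5%), 4278 higher (24.3%) and 3022 lower (17.2%). These lines also differ in ZC3H7A and ZC3H7B themselves. Of the 13467 calls between the control lines 13181 were tested there, and 10638 (80.7%) were called in the same direction, 823 (6.24%) in the opposite one. For calls of at least 2-fold it was 6234 of 6788 (91.8%). All 6 libraries lysed with cycloheximide lay above all 9 Flag/HA libraries for 4823 of the genes tested (29.01%) and below them for 4111 (24.7%). AT3 quartiles had 0.73, 0.17, -0.29 and -0.49 in that comparison, and every ZC3H7A/B-DD library (43.4% to 44.9%) had a lower read-weighted AT3 than every overexpressing library (47.9% to 48.5%). MT-RNR2 recurred at a log2 difference of 6.98, RMRP at -6.95, MYOD1 at 9.67, KCNE1 at 9.27 and GOLGA8B at -8.18. Of the 24 highest and lowest differences above, HIST1H2AL was the one that fell under 1, at 0.70.

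Other differences had smaller or opposite values in those 9 libraries, or larger ones for the mitochondrially encoded list. Histones had 27 of 50 higher and 10 lower there, with a median of 0.47 against 1.51. Known TOP mRNAs outside the ribosome had 6 of 22 higher and 13 lower, with a median of -0.38 against -0.66. The integrated stress response had 13 of 36 higher and 20 lower, with a median of -0.24 against 0.66, and MYC had 0.66 against 2.46. NDRG1 was at -0.37 against 1.70 and SLC2A3 at 0.50 against -2.22. Mitochondrially encoded proteins had none of 13 higher and 9 lower, with a median of -1.26 against -0.32. Whether the 2 comparisons differ was not tested for these lists and genes. The series' target genes differed between the control lines as well. ZC3H7A had 1885, 1819.9 and 2311 against 6509, 6526 and 6607 (log2 difference -1.71, SE 0.091, limma adjusted p = 1.05e-06), and ZC3H7B had 2479, 2321 and 2609 against 2230.5, 2137 and 2089 (log2 difference 0.20, SE 0.063, limma adjusted p = 0.0189), a call that was lost with TMM scaling and without Flag/HA control replicate 2 or 3.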

How the data were processed

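Footprints were counted per gene in 6 HEK293 libraries, 3 Parental and 3 Flag/HA control. The deposited table holds 55773 rows of normalised signal, which the authors made before deposit, with cutadapt, Bowtie, STAR, HTSeq, DESeq2, hg38 and hg19 listed in the submitters' processing notes but no versions or roles. Every value was a whole number of reads divided by a size factor (100% whole within 0.001 reads), so reads and depths of 28261810 to 39064072 were recovered. Intervals (95%) and floors (3 reads) cover counting error only. Rows were matched by name to GENCODE release 29 (35003, of which 19034 had a coding sequence of at least 30 codons), and 10735 rows had no read in the series. Genes at 10 or more in at least 3 of the 6 libraries were tested with limma 3.58.1 (lmFit, eBayes with trend, R 4.3.3) on log2(value + 1). Medians, densities and exact permutation tests used Python 3.11.15, scipy 1.17.1 and pandas 2.3.3. Alternatives were edgeR 4.0.16 and DESeq2 1.42.0 on the recovered reads, other filters, pseudocounts and scalings, left-out libraries and a replicate block. Same-numbered libraries did not deviate together (correlations -0.013, -0.0020 and 0.014), so the numbers pair nothing.

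Genes named are the 20 rows with most reads, the 10 densest, the 12 highest and lowest called differences at a mean of 50 or more without overlap, the 10 alike genes with most reads, the leading member and up to 2 called members per direction of each of 34 lists, and both targets. Y-linked genes and XIST were left out, and some other genes that the rule names are not reported here. The libraries, lists and genes were chosen with earlier results of these data known. Windows of 28 bases of each coding sequence were compared, on either strand, with the transcripts of all GENCODE genes at other, non-overlapping places. This comparison was chosen after seeing the data. Simulated reads with known changes and an assumed spread were used to test the limma fit.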

Additional observations from a re-analysis of the deposited data

Results flagged for a closer look

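For several called genes every Parental library lay on one side of every control library while every ZC3H7A/B-DD library lay on the opposite side of every overexpressing library, and the difference between these comparisons was not tested. ATP5B was 0.27 higher on the log2 scale between the control lines and had -0.38 in the other 9 libraries. The histones HIST1H4H and HIST1H4B had 0.55 and 0.69 between the control lines and -0.57 and -0.28 in the others. EIF6 had 0.94 and -0.20, and the import receptor TNPO2 had 0.57 and -0.76. The calcium-binding protein S100A2 had -0.97 and 1.04. ATF4 had 0.95 and -1.34, and its target DDIT3 had 1.86 and -0.93. Outside the comparisons, 28 row names that a spreadsheet had turned into dates, of which 4 rows were duplicates, held up to 0.285% of reads in a library (0.186% to 0.285%), above the floor of 1.06e-05%, and could not be assigned to genes.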

How the results depend on the processing

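The count of 13467 genes called between the control lines ran from 12747 to 14096 with each library left out in turn, highest without Parental replicate 3, and the count of alike genes from 2783 to 3803. It was 13474 with edgeR, 13202 with DESeq2 and 13325 with the replicate block, where alike genes came to 3191. Without a filter on low values 12014 genes were higher and 7158 lower, against 6996 and 6471, and of the calls 51.9% were higher as reported, 57.8% with scaling to totals, 48.0% with quantile scaling and 44.2% with a filter at 100. In the other 9 libraries the count stayed between 13909 and 14329 with a library left out and was 14399 with the block. The block, paired by number only, took the calls of GNB2L1, ATP5B and RPLP0 and gave one to HNRNPU. These 3 calls are weak, since over all settings, the block included, GNB2L1 lost its call in 7, ATP5B in 8 and RPLP0 in 9, ZC3H7B in 4 and B2M in 1.

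Genes holding 50% of control reads numbered 998 among protein-coding genes and 1023 without mitochondrial ones, and 986 to 1050 (Parental) and 1007 to 1018 (control) with a library left out. The ribosomal protein share differed by 0.519 to 0.581 points and read-weighted AT3 by -6.26 to -6.01 points under the same omissions. By coding length the end medians became -0.20 and -0.19 with the shortest coding sequence, and the last -0.47 with a filter at 100, with ranges of 0.15 to 0.25 and -0.41 to -0.35 over left-out libraries. By AT3 they became 0.86 and -0.72 with the shortest coding sequence, 0.92 and -0.81 with a filter at 100, and the last -0.81 with TMM scaling, with ranges of 0.95 to 1.00 and -0.79 to -0.77. Against genes of like AT3, a check chosen after seeing the data, list medians turned sign for initiation factors (0.042), splicing factors (0.0019), cytoskeleton (-0.25), mitochondrially encoded proteins (0.17), mitosis (0.21), HOX genes (-0.35) and ZNF genes (0.041), and of smaller medians for the proteasome (0.095), tRNA synthetases (0.17), nucleolar genes (0.073), large-subunit proteins (0.032), HEK293 markers (-0.24) and blood markers (-0.36). Quantile scaling turned RPLP0 to 0.032. Less the median of all genes, it also turned large-subunit proteins (-0.04 to 0.16), tRNA synthetases (-0.12 to 0.19), nucleolar genes (-0.09 to 0.20), proteasome (-0.19 to 0.10) and mitosis (-0.28 to 0.05), and the cause was not tested. Over 211 named genes and all settings 3711 values kept direction and side of the threshold, 45 gained a call, 29 lost one and 1 reversed. Without Parental replicate 3, ENO1, PRKDC, PKM, HNRNPU, CCT3, MCM7, FBN2 and PRPF8 were called. Depth limits the low genes, since 3 reads are 7.68e-06% to 1.06e-05% of a library.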
